A study of Mus musculus with 11 samples.

Results

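The genes described here carry iron into macrophages, store it and let it out again. The group was chosen by gene name, with earlier results of these data known. It holds 10 genes: the transferrin receptor Tfrc, the divalent metal transporters Slc11a2 and Slc11a1, the haem transporter Slc48a1, the biliverdin reductase Blvrb, the ferritin chains Fth1 and Ftl1, the iron exporter Slc40a1 and the iron regulatory proteins Ireb2 and Aco1. All 10 had 1 row each among the 55487 gene IDs of the deposited table, and all 10 passed the low-count filter that left 15135 genes. They were measured by RNA sequencing in 4 libraries of mouse bone marrow-derived macrophages treated for 24 h with 0.5 µg/ml CYR61 and in 7 control libraries that received 0 µg/ml. CYR61 (CCN1) is a matrix-associated protein that cells sense through integrins. Both groups came from C57BL/6J mice aged 2 to 5 months, whose marrow was cultured for 5 to 6 days with serum and CMG-conditioned medium, a source of the macrophage growth factor M-CSF. Nothing in the labels ties a library to its own mouse or culture, and the p-values therefore reflect differences between libraries that may be technical only. The iron content of the medium and any vehicle for control cells are also not stated. C57BL/6J mice carry an Slc11a1 allele with a glycine-to-aspartate substitution that abolishes its transport function, which limits these cells as a model of that gene.

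Macrophages take up iron bound to transferrin through the transferrin receptor, and recycle iron from the haem of red cells that they engulf. Spare iron is stored in ferritin, a shell of heavy (Fth1) and light (Ftl1) chains, and leaves the cell through ferroportin, the product of Slc40a1. When iron is scarce, iron regulatory proteins bind hairpins called iron-responsive elements in messenger RNA. Binding in a 5′ UTR blocks translation, whereas binding in the 3′ UTR of Tfrc protects the message from decay, so messenger RNA levels report this control for Tfrc and do not report it for ferritin or ferroportin protein.

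The elements are shown because they divide the 10 genes by the kind of control their messages carry. GENCODE M21 transcripts (build GRCm38) were searched on the sense strand for a bulged C, a stem of 5 base pairs with G-T pairs allowed, and a loop reading CAGTGN, where N is any base but G. Capitals mark the bulged C and the loop.
Slc40a1, 5′ UTR, chr1:45925465-45925493, minus strand: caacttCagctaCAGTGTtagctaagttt
Fth1, 5′ UTR, chr19:9982732-9982760, plus strand: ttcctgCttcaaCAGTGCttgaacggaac
Ftl1, 5′ UTR, chr7:45459779-45459807, minus strand: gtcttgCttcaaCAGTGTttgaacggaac
Tfrc, 3′ UTR, chr16:32631219-32631247, plus strand: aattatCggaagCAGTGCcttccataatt
Tfrc, 3′ UTR, chr16:32631598-32631626, plus strand: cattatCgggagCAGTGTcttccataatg
Tfrc, 3′ UTR, chr16:32631663-32631691, plus strand: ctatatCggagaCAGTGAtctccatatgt
Tfrc, 3′ UTR, chr16:32631710-32631738, plus strand: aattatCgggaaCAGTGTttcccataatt
Matches of this form lay in the 5′ UTR of 3 of the 10 genes and in the 3′ UTR of 1, Tfrc, which held 4. The search would miss any element that departs from this form, in Tfrc as in the other genes. Among 21901 coding genes searched, 0.105% had such a match in a 5′ UTR and 0.457% in a 3′ UTR. The remaining 6 genes had no match of these letters in a UTR, Slc11a2 among them. Some Slc11a2 transcripts are known to carry a 3′ UTR element of a looser form, and gene-level counts do not separate those transcripts from the others.

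Libraries held 17390272 to 20760322 counts with CYR61 and 14912123 to 21047654 in controls, and the 10 genes together took 1.72 to 1.77% of counts with CYR61 and 1.70 to 1.79% in controls. Levels below are CPM, counts relative to the TMM-scaled library total, as mean ± SD with n = 4 CYR61 and n = 7 control libraries. CYR61 replicate 4 had the most ribosomal RNA, 2.47% of its counts, where its 3 companions had 0.260 to 0.591% and controls 0.286 to 0.884%. Chi-square per gene, over counts that include ribosomal RNA, was 19.2 to 33.4 in the 3 pairs of this library. It was 3.48 to 9.07 in the other CYR61 pairs and 2.90 to 10.6 among controls. This measure repeats the ribosomal RNA difference in part, and how far the other genes set the library apart was not tested. Without CYR61 replicate 4 the log2 fold change was 0.48 for Tfrc (adjusted p = 0.000211), 0.15 for Slc11a2 (adjusted p = 0.0374) and -0.36 for Slc40a1, which no longer passed (adjusted p = 0.0835, edgeR). Of 8 macrophage markers 5 were higher with CYR61, and Cd68, Mertk and Cd14 did not pass. The summed level of the 8 was 24708 to 26922 CPM with CYR61 and 22338 to 23730 CPM in controls. Most of it was Lyz2, with means of 19563 CPM with CYR61 and 17244 CPM in controls. Osteoclast and B cell markers also separated the groups. The summed level of 6 osteoclast markers was 32.1 to 35.4 CPM with CYR61 and 24.7 to 30.6 CPM in controls, with 2 of the 4 tested higher, Acp5 and Mmp9, and Calcr at 0 counts in every library. That of 5 B cell markers was 46.0 to 50.1 CPM with CYR61 and 55.3 to 68.6 CPM in controls, nearly all of it Ighm, which was lower (47.3 CPM with CYR61 and 61.3 CPM in controls). Their part in the iron gene results was not tested.

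The comparison asks how exposure to CYR61 changed the messages of these genes. Tfrc, the receptor that brings in transferrin-bound iron, rose 1.37-fold, and Slc11a2, which moves that iron out of endosomes, rose 1.11-fold. Slc40a1, the exporter, fell to 0.786 times control with an adjusted p close to the threshold and a call that most processing alternatives lost. Both ferritin chains, the most abundant of the 10, stood at 1.03 and 1.02 times control and did not pass. In all, 2 of the 10 genes passed as higher and 1 as lower at a Benjamini-Hochberg adjusted p of 0.05 in edgeR's quasi-likelihood test. Over all 15135 genes tested, 7.96% passed in either direction, 5.33% as higher and 2.63% as lower. The median log2 fold change was 0.06 over the 10 genes and -0.01 over all genes tested. With counts scaled by library size alone the median of all genes was -0.05, and the number of iron genes called higher was 1, Tfrc.

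**Figure D1:**
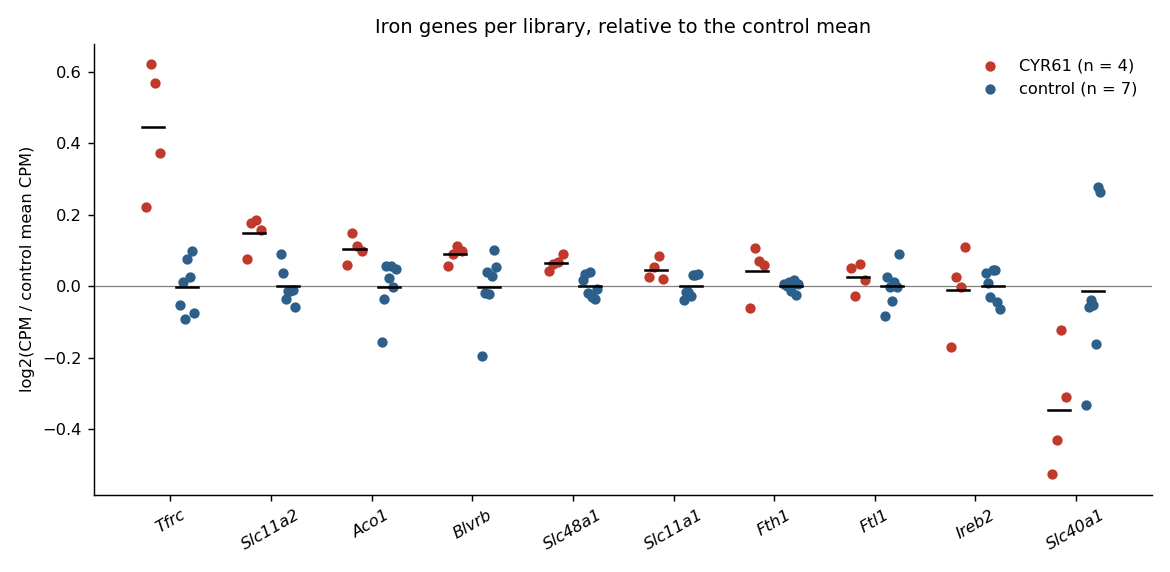
Each point is 1 library, plotted as the log2 of its CPM over the control mean of that gene, with CYR61 libraries (n = 4) left of control libraries (n = 7) and a bar at each group's mean of the plotted values. Tfrc stands apart upward with all CYR61 libraries above all controls, Slc40a1 lies lowest with groups that overlap, and the ferritin genes lie near 0.

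Tfrc lies at chr16:32608920-32632794 on the plus strand of GRCm38. It had 128, 169, 163 and 142 CPM in CYR61 replicates 1 to 4, against a lowest, median and highest control of 103, 111 and 118 CPM. Every CYR61 library stood above every control, and replicate 1 was the lowest of the CYR61 libraries. Means were 151 ± 18.8 CPM with CYR61 and 110 ± 5.67 CPM in controls. The log2 fold change was 0.45 (SE 0.06, 95% interval of the fold 1.25 to 1.49, adjusted p = 7.98e-05, edgeR with Benjamini-Hochberg adjustment). All 4 CYR61 libraries stood above all controls in 4.65% of the genes tested. The rise was past the threshold in all 23 processing alternatives, with log2 fold changes of 0.39 to 0.59.

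Dividing and erythroid cells are known for high Tfrc, so their markers are set beside it. Of 11 markers of cycling cells, 6 were lower with CYR61 and none was higher. The lower ones were Mki67, Top2a, Cenpf, Aspm, Ccnb1 and Plk1. Cdk1 and Bub1 had lower means, and Mcm2, Mcm5 and Pcna slightly higher means, but these did not pass. The summed level of the 11 was 1201 to 1322 CPM with CYR61 and 1460 to 1519 CPM in controls. Its largest part was Mki67, with means of 535 CPM with CYR61 and 680 CPM in controls. The part of cycling cells in the Tfrc result was not tested. Erythroid markers were near 0. Hbb-bt and Slc4a1 had 0 counts in every library, and the summed level of the 8 markers was 0.493 to 1.31 CPM with CYR61 and 0.317 to 1.13 CPM in controls. In these bulk libraries, more cells with a message and more message per cell cannot be told apart.

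Slc11a2 encodes DMT1, which carries ferrous iron across the endosomal membrane after transferrin has released it. Its levels were 49.6, 53.2, 53.5 and 52.5 CPM in CYR61 replicates 1 to 4, with controls at 45.2 CPM (lowest), 46.6 CPM (median) and 50.0 CPM (highest). CYR61 replicate 1 lay just under the highest control, replicate 1, so the groups overlapped by that pair. The means were 52.2 ± 1.76 CPM with CYR61 and 47.0 ± 1.61 CPM in controls, a log2 fold change of 0.15 (SE 0.04, adjusted p = 0.0121, edgeR). The call was lost in 6 of 23 alternatives, among them scaling by library size alone (log2 fold change 0.11, adjusted p = 0.0786) and leaving out CYR61 replicate 2 or 3. Its exons overlap 402 bases of Gm5475 on the opposite strand in GENCODE M21. That gene stood at 0.604 CPM with CYR61 and 0.574 CPM in controls, far below Slc11a2.

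Ferroportin, encoded by Slc40a1 at chr1:45908068-45926523 on the minus strand of GRCm38, is the only known exporter of ferrous iron in mammals. CYR61 replicates 1 to 4 had 23.0, 24.6, 30.5 and 26.7 CPM, and controls ran over 26.3 CPM (lowest), 32.0 CPM (median) and 40.2 CPM (highest). Control replicate 1 lay among the CYR61 libraries, and CYR61 replicate 3 lay above control replicates 1 and 5. Averages were 26.2 ± 3.22 CPM with CYR61 and 33.1 ± 5.11 CPM in controls. It was called lower with a log2 fold change of -0.35 (SE 0.10, 95% interval of the fold 0.677 to 0.912, adjusted p = 0.0436, edgeR). The log2 fold change stayed negative in all 23 alternatives, from -0.43 to -0.23, and 14 of them lost the call, DESeq2 (adjusted p = 0.0743) and limma-voom (adjusted p = 0.0514) among them. The adjusted p ran from 0.00578 to 0.267 over these alternatives.

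Slc40a1 also varied most among the 10 genes in untreated cells, with a coefficient of variation of 15.4% over the 7 controls, against 1.04 to 6.35% for the other 9. The median over the 6660 tested genes averaging 20 CPM or more was 4.35%. The lowest control for Slc40a1 was the library with the fewest counts (replicate 1, 14912123), and the highest controls were those with the most (replicate 6, 21047654, and replicate 7, 20125139, at 39.8 CPM). CYR61 libraries did not follow this order. The one with the fewest counts (replicate 3, 17390272) had the highest level, 30.5 CPM, and the one with the most (replicate 2, 20760322) had 24.6 CPM. The part of library depth in the Slc40a1 result was not tested. Control replicate 1 was the lowest control for 5 of the 10 genes and the highest for 1, Slc11a2. CYR61 replicate 1 was the lowest CYR61 library for 8. How often these libraries were lowest over all genes tested was not computed, so the counts cannot be read as particular to iron genes.

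**Figure D2:**
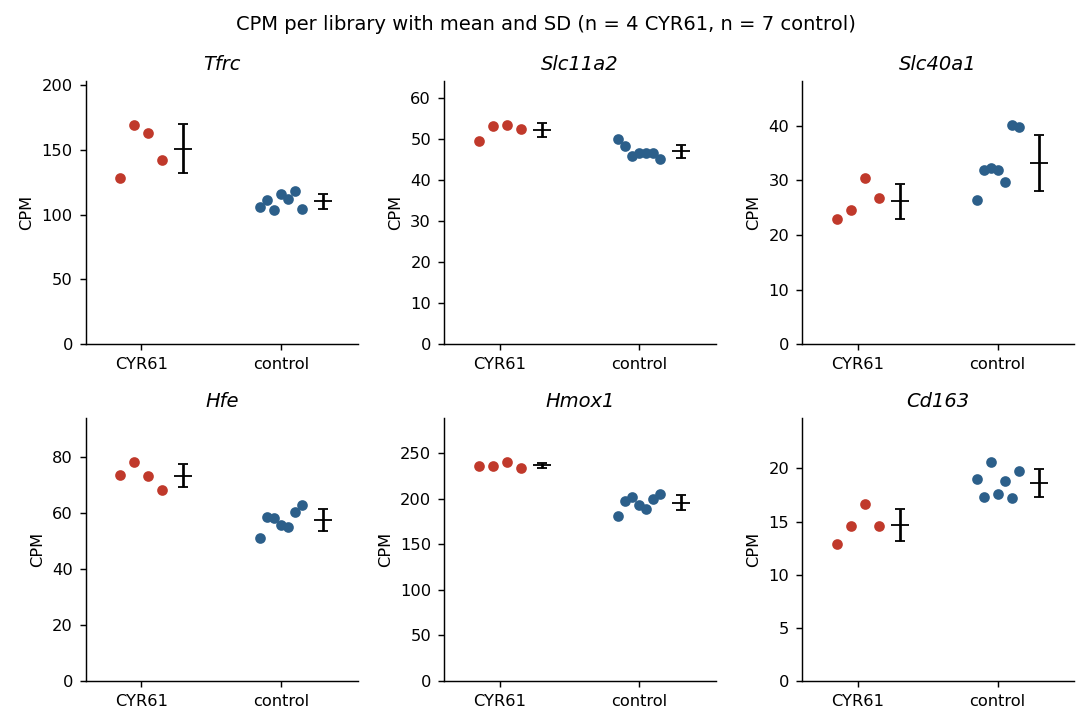
CPM per library on axes that start at 0, with mean and SD beside the points, CYR61 (n = 4) left of control (n = 7). In the panels of Tfrc, Hfe, Hmox1 and Cd163 the groups do not overlap, and in those of Slc11a2 and Slc40a1 they do.

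Within each library the ratio of Tfrc to Slc40a1 counts was 5.32 to 6.87 with CYR61 and 2.62 to 4.03 in controls, with means of 5.78 ± 0.736 and 3.38 ± 0.492. Every CYR61 library had a higher ratio than every control. This ratio joins a member that rose to one that fell, and is a description of these libraries.

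Ferritin messages were far more abundant than those of the other members. Fth1, whose protein chain oxidises iron as it enters the shell, had 6782, 7625, 7434 and 7372 CPM in CYR61 replicates 1 to 4, with controls at 6956 CPM (lowest), 7110 CPM (median) and 7159 CPM (highest). CYR61 replicates 2 to 4 lay above all controls, and replicate 1 lay below all of them. Its log2 fold change was 0.04 (95% interval of the fold 0.989 to 1.08, adjusted p = 0.414, edgeR). Without CYR61 replicate 1 the log2 fold change was 0.08 and passed (adjusted p = 0.0245). The authors' deposited table lists Fth1 with a log2 fold change of 0.063 and an adjusted p of 0.0479.

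Ftl1, the light chain that favours formation of the iron core, had 9037, 8559, 9104 and 8825 CPM in CYR61 replicates 1 to 4, against controls at 8226 CPM (lowest), 8713 CPM (median) and 9290 CPM (highest). All CYR61 libraries lay within the control range. The log2 fold change was 0.03 (95% interval of the fold 0.974 to 1.06, adjusted p = 0.699, edgeR). The ratio of Ftl1 to Fth1 counts was 1.12 to 1.33 with CYR61 and 1.16 to 1.31 in controls. Both ferritin genes have near-identical copies, and their estimated counts were not whole numbers in any library, so their levels are uncertain. The named copies of Fth1 held few counts, with Fth-ps2 at 6 to 9 with CYR61 and 2 to 10 in controls. Summed with these copies, Fth1 had a log2 fold change of 0.04. Ftl copies other than Ftl1, nearly all of them Ftl1-ps1, held 6.31 to 7.77% of all Ftl counts with CYR61 and 5.92 to 6.29% in controls. In GENCODE M21, Ftl1 exons also overlap 355 bases of Gm10252 on the opposite strand. That gene stood at 91.4 CPM with CYR61 and 98.6 CPM in controls, far below Ftl1. They overlap 109 bases of the microRNA gene Gm22133 on the same strand, which was not among the genes tested.

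Next are the transporters Slc11a1 and Slc48a1 and the reductase Blvrb. Slc11a1 encodes NRAMP1, a metal transporter of the phagosome membrane. It stood at 547, 558, 569 and 544 CPM in CYR61 replicates 1 to 4, with controls at 523 CPM (lowest), 531 CPM (median) and 550 CPM (highest), and did not pass (adjusted p = 0.375, edgeR). The lowest CYR61 libraries lay inside the upper control range, so the groups overlapped.

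Slc48a1 encodes HRG1, which carries haem from the phagolysosome to the cytosol. It had 345, 350, 351 and 357 CPM in CYR61 replicates 1 to 4, with controls at 327 CPM (lowest), 334 CPM (median) and 345 CPM (highest). All CYR61 libraries stood above all controls, by less than 1 CPM between the nearest pair (345.5 with CYR61, 344.5 in control), yet the gene did not pass (log2 fold change 0.07, 95% interval of the fold 1.01 to 1.09, adjusted p = 0.172, edgeR). In the authors' deposited table it is listed with a log2 fold change of 0.0713 and an adjusted p of 0.0254. Slc48a1 exons overlap 29 bases of Hdac7 on the opposite strand in GENCODE M21. Hdac7 stood at 38.3 CPM with CYR61 and 38.5 CPM in controls.

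Blvrb encodes a reductase of biliverdin and flavins, which acts after haem has been opened. Its CYR61 libraries had 277, 284, 288 and 285 CPM, and controls had 232 CPM (lowest), 272 CPM (median) and 285 CPM (highest). The groups overlapped, and control replicate 1 stood apart below the other controls, the next of which had 262 CPM. The log2 fold change of 0.09 did not pass (95% interval of the fold 0.999 to 1.13, adjusted p = 0.255, edgeR).

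The iron regulatory proteins read the iron supply. Aco1 encodes IRP1, which is an aconitase when it holds an iron-sulfur cluster and binds RNA when it does not, and Ireb2 encodes IRP2, which is degraded when iron is plentiful. Aco1 had 61.1, 65.0, 63.4 and 62.8 CPM in CYR61 replicates 1 to 4, with controls at 52.7 CPM (lowest), 59.6 CPM (median) and 61.0 CPM (highest). All CYR61 libraries lay above all controls, by less than 0.1 CPM at the nearest pair, and the gene did not pass (log2 fold change 0.10, 95% interval of the fold 1.02 to 1.14, adjusted p = 0.126, edgeR). Tfrc, Slc48a1 and Aco1 were the 3 of the 10 genes whose groups did not overlap, against 7.16% of all genes tested.

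Ireb2 had 50.8, 58.1, 57.0 and 61.6 CPM in CYR61 replicates 1 to 4, against controls at 54.6 CPM (lowest), 57.5 CPM (median) and 58.9 CPM (highest). CYR61 libraries lay below, within and above the control range. The difference was within the spread (log2 fold change -0.005, 95% interval of the fold 0.935 to 1.06, adjusted p = 0.968, edgeR).

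Levels were compared between genes per kilobase of the longest coding transcript in GENCODE M21. In control libraries Ftl1 had 9013 ± 342 and Fth1 4739 ± 49.1 CPM per kilobase, far above the rest. The lengths used were 968 bases for Ftl1 and 1494 bases for Fth1, and the control means before this division were 8724 and 7080 CPM. The gap between them therefore depends on the transcript chosen. Blvrb followed at 259 ± 16.5, Slc11a1 at 232 ± 5.08 and Slc48a1 at 132 ± 2.80 CPM per kilobase, and the ranges of Blvrb (226 to 278) and Slc11a1 (226 to 238) overlapped. Tfrc had 22.5 ± 1.16, Aco1 15.3 ± 0.781 and Slc11a2 10.7 ± 0.365 CPM per kilobase. Ireb2 (9.90 ± 0.312) and Slc40a1 (9.83 ± 1.51) came last and did not differ beyond their spread. With CYR61, Tfrc had 30.8 ± 3.85 and Slc40a1 7.78 ± 0.957 CPM per kilobase, and the order of the genes by mean was the same.

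Other genes of iron and haem handling were taken from 4 lists of 78 symbols, also chosen with earlier results of these data known. Of the 78, 75 had a row in the table, 59 were tested and 16 were too low to test. Of the 59, 8 were higher, 2 were lower and 49 did not pass. The background is the same 5.33% higher and 2.63% lower, and the median log2 fold change was 0.02 over the 59 and -0.01 over all genes tested.

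In the list of iron uptake, reductases and oxidases, 3 of 9 tested genes rose, none fell and 6 did not pass. Hfe, whose product binds the transferrin receptor and is mutated in hereditary haemochromatosis, had 73.7, 78.4, 73.2 and 68.3 CPM in CYR61 replicates 1 to 4, with controls at 51.1 CPM (lowest), 58.2 CPM (median) and 63.1 CPM (highest). No CYR61 library reached down to the control range, and Hfe rose 1.28-fold (log2 fold change 0.35, SE 0.05, adjusted p = 0.000122, edgeR). Picalm, a clathrin adaptor needed for uptake of the transferrin receptor, rose 1.17-fold (266 ± 20.4 CPM with CYR61 and 228 ± 8.42 CPM in controls, adjusted p = 0.00258, edgeR). Slc39a14, an importer of iron not bound to transferrin, rose 1.16-fold (17.8 ± 0.497 CPM with CYR61 and 15.3 ± 0.811 CPM in controls, adjusted p = 0.0164, edgeR). Its call was lost in 6 of 23 alternatives. Transferrin itself (Trf) was measured at 59.6 ± 4.17 CPM with CYR61 and 66.4 ± 5.00 CPM in controls and did not pass (adjusted p = 0.0955, edgeR). It passed as lower with library size alone (log2 fold change -0.20, adjusted p = 0.0257) and without control replicate 1 (log2 fold change -0.19, adjusted p = 0.0267).

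Of 10 tested genes of haem breakdown and transport, 3 rose, 1 fell and 6 did not pass. Hmox1, the inducible haem oxygenase that releases iron from haem, rose 1.21-fold, with 235, 236, 240.5 and 234 CPM in CYR61 replicates 1 to 4 and controls at 181 CPM (lowest), 197 CPM (median) and 205 CPM (highest). The 4 CYR61 libraries lay close together and above all controls (adjusted p = 4.04e-05, edgeR). Its constitutive relative Hmox2 rose 1.10-fold (97.8 ± 2.18 CPM with CYR61 and 89.3 ± 4.92 CPM in controls, adjusted p = 0.047, edgeR), a call lost in 13 of 23 alternatives. Blvra, the major biliverdin reductase, had 56.3 ± 3.69 CPM with CYR61 and 56.1 ± 3.38 CPM in controls.

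The haemoglobin clearance pair of the same list moved in opposite directions. Cd163, the macrophage receptor for haptoglobin bound to haemoglobin, had 12.9, 14.6, 16.6 and 14.6 CPM in CYR61 replicates 1 to 4, with controls at 17.2 CPM (lowest), 18.9 CPM (median) and 20.6 CPM (highest). All CYR61 libraries lay below all controls, and Cd163 fell to 0.787 times control (adjusted p = 0.00444, edgeR). The call was lost without CYR61 replicates 1 and 4 (log2 fold change -0.26, adjusted p = 0.0917). All 4 CYR61 libraries stood below all controls in 2.5% of the genes tested. Haptoglobin (Hp), the ligand, rose 3.82-fold, to 9.88 ± 2.70 CPM with CYR61 against 2.59 ± 0.891 CPM in controls (adjusted p = 5.85e-06, edgeR).

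**Figure D3:**
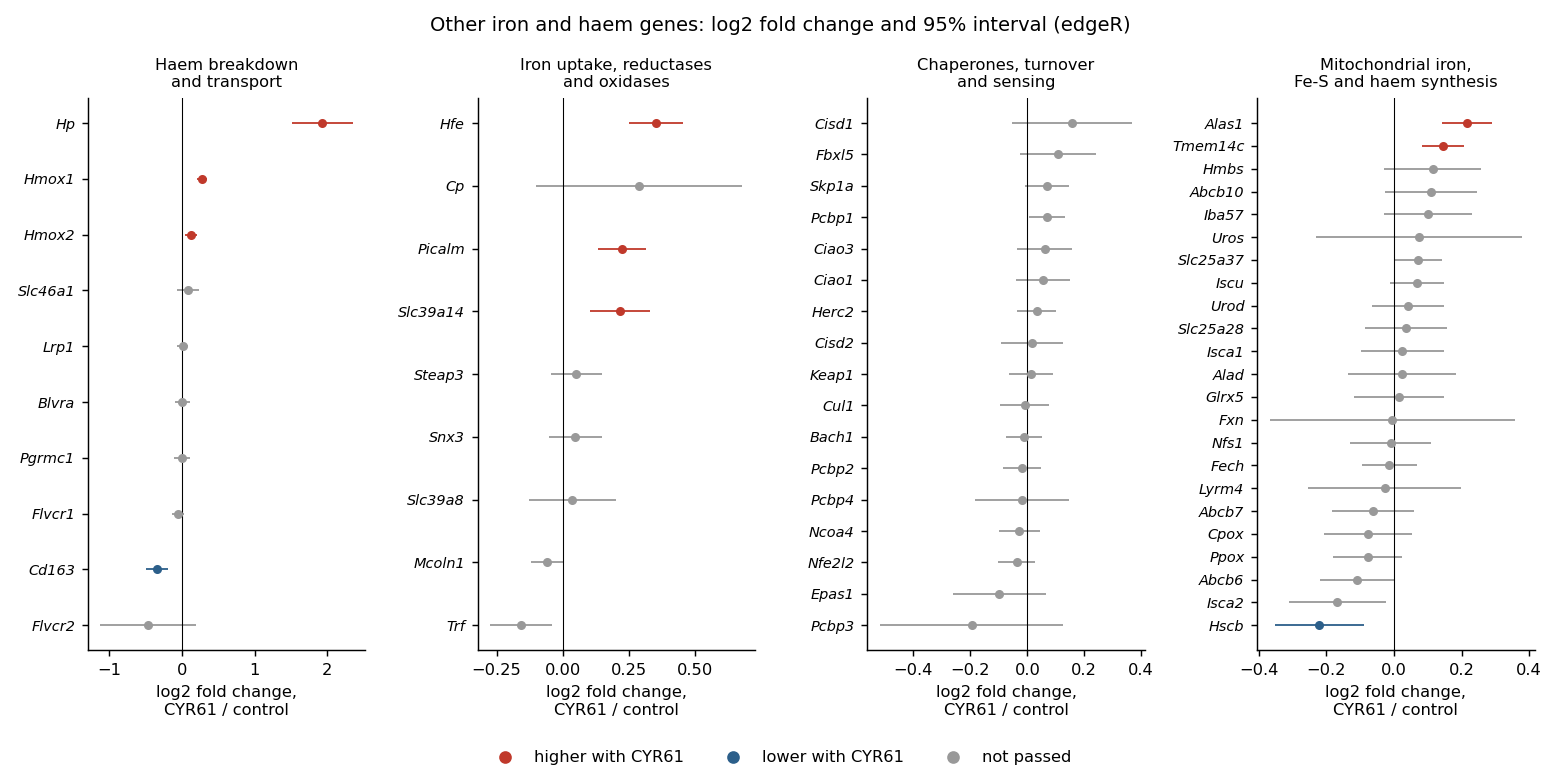
Log2 fold change of CYR61 over control with its 95% interval (edgeR, n = 4 CYR61 and n = 7 control) for the 59 tested genes of 4 iron and haem lists, coloured by call, each panel with its own horizontal scale. The 10 called genes are spread over 3 of the lists, and none of the 17 genes of chaperones, ferritin turnover and iron sensing passed. Over all genes tested, 7.96% passed, a share at which a list of 17 can hold none.

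Over all genes tested, 7.96% passed in edgeR in either direction, a share at which a list of 17 can hold none. Of 17 tested genes of iron chaperones, ferritin turnover and iron sensing, 0 passed in edgeR, DESeq2 or limma-voom (with or without library weights), and 1 had an unadjusted p under 0.05 in edgeR. That gene was Pcbp1, a chaperone that hands iron to ferritin, at 233 ± 4.82 CPM with CYR61 and 222 ± 5.87 CPM in controls (adjusted p = 0.194, edgeR). The authors' deposited table lists it with a log2 fold change of 0.0706 and an adjusted p of 0.0347. Ncoa4, the receptor that takes ferritin to the lysosome, had 208 ± 7.50 CPM with CYR61 and 212 ± 7.76 CPM in controls (95% interval of the fold 0.932 to 1.03). Fbxl5, the ubiquitin ligase subunit that marks IRP2 for decay, had 51.0 ± 3.12 CPM with CYR61 and 47.5 ± 4.63 CPM in controls (95% interval of the fold 0.983 to 1.18).

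Among 23 genes of mitochondrial iron, iron-sulfur clusters and haem synthesis, 2 rose, 1 fell and 20 did not pass. Alas1, which catalyses the first step of haem synthesis, had 149, 152, 148 and 155 CPM in CYR61 replicates 1 to 4, with controls at 121 CPM (lowest), 131 CPM (median) and 137 CPM (highest). Its groups did not overlap, and it rose 1.16-fold (adjusted p = 0.000485, edgeR). Tmem14c, which helps move a haem precursor into mitochondria, rose 1.11-fold (74.0 ± 1.79 CPM with CYR61 and 66.9 ± 1.59 CPM in controls, adjusted p = 0.00424, edgeR), a call lost without CYR61 replicates 1 and 4 (log2 fold change 0.13, adjusted p = 0.0627). Hscb, a co-chaperone of iron-sulfur cluster assembly, fell to 0.858 times control (11.7 ± 0.653 CPM with CYR61 and 13.6 ± 0.768 CPM in controls, adjusted p = 0.0363, edgeR), a call lost in 12 of 23 alternatives. Alas2, the haem synthesis gene of erythroid cells, had at most 18 counts in a library.

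Lcn2, which binds the siderophores that bacteria use to take iron, was too low to pass the filter and was looked at after its values were seen. It had 11, 38, 13 and 9 counts in CYR61 replicates 1 to 4, against 0 to 2 counts in each control. Summed over libraries these were 71 counts with CYR61 and 7 in controls, and without the filter it was called higher (adjusted p = 4.71e-07, edgeR over 28525 genes). Lcn2 and Hp are also known as genes of neutrophil granules. Of 8 neutrophil markers, Ly6g had 0 counts in every library, Mpo, Elane, S100a9, Camp, Ngp and Ltf had at most 5, and S100a8 alone was tested and was higher (1.69 CPM with CYR61 and 0.970 CPM in controls, adjusted p = 0.0213, edgeR). The summed level of the 8 was 1.66 to 2.12 CPM with CYR61 and 0.785 to 1.39 CPM in controls, and its part in the Lcn2 and Hp results was not tested. The hepcidin gene Hamp, whose product brings about the breakdown of ferroportin, had at most 3 counts in any library.

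Of 13999 genes in the authors' deposited table, 12.3% had an adjusted p under 0.05, and 4 of the 10 iron genes were among them: Tfrc, Slc11a2, Slc48a1 and Fth1. It lists Tfrc with a log2 fold change of 0.488 and an adjusted p of 5.69e-07, and Slc11a2 with 0.166 and 0.00182. Slc40a1 is listed in the authors' deposited table at -0.3 with an adjusted p of 0.0586.

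**Figure D4:**
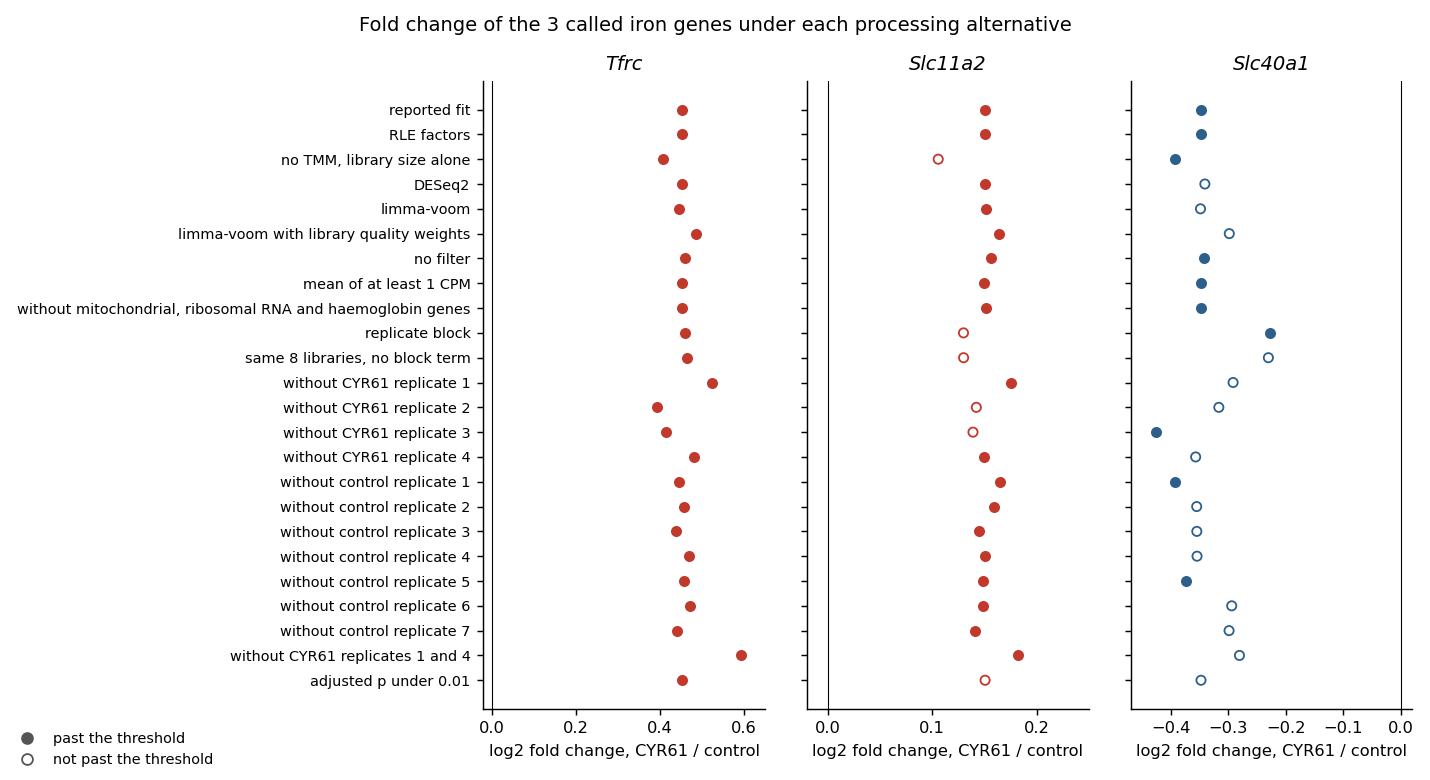
Log2 fold change of CYR61 over control for Tfrc, Slc11a2 and Slc40a1 in the reported fit and in 23 processing alternatives, filled where the gene passed that alternative's threshold and open where it did not, each panel with its own horizontal scale. Tfrc passed in all 23, Slc11a2 in 17 and Slc40a1 in 9, and no direction changed.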

How the data were processed

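Total RNA was depleted of ribosomal RNA, primed with random hexamers and read as 150-base pairs, per the labels' protocols. DRAGEN is named, with no role or version, in the submitters' processing notes. The authors' build, annotation and strand setting were not given in the sources used here. Files deposited by the authors held expected counts (estimated counts) per Ensembl gene, not normalized, of which 88.6 to 89.4% per library were whole numbers (zeros included), and their own comparison, holding log2 fold changes, p-values, scores and log2 CPM. Repeated rows (55774 rows, 55487 IDs) were dropped and counts rounded. R 4.3.3 and edgeR 4.0.16 tested CYR61 against control over all 11 libraries: filterByExpr, TMM, glmQLFit and glmQLFTest without covariates, two-sided, with Benjamini-Hochberg adjustment over 15135 genes and a threshold of 0.05. Standard errors are the log2 fold change over the root of its F, and intervals use the fit's degrees of freedom. Alternatives were DESeq2 1.42.0, limma-voom (3.58.1) with and without library weights, other scalings and filters, an adjusted p of 0.01, fewer libraries and a replicate block. The ferritin genes were also summed with their copies. Pairs of libraries within a group were compared by chi-square of their counts over genes, ribosomal RNA included, and none were identical. Members and lists were chosen with earlier results of these data known. All 10 members are named, as is each listed gene past the threshold, with Hmox1, Hmox2, Blvra, Ncoa4, Pcbp1, Trf and Fbxl5.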

Additional observations from a re-analysis of the deposited data

Results flagged for a closer look

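Tmem14c was flagged because CYR61 replicate 2, at 71.3 CPM, lay apart from the other CYR61 libraries (74.6 to 75.0 CPM), still above all controls. It was the 1 flag in 50 groups examined, and chance flags about 1 in 20.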

How the results depend on the processing

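Over 23 alternatives, 1 to 3 of the 10 iron genes were called higher and 0 or 1 lower, against 2 and 1 reported. The number called higher was 1 with scaling by library size alone, at an adjusted p of 0.01 and in the 8 libraries of replicates 1 to 4 without a block term. The number called lower was 0 with DESeq2, with limma-voom with or without weights, in those 8 libraries, without CYR61 replicates 1 and 4 together and at an adjusted p of 0.01. Leaving out 1 library at a time gave 1 to 3 called higher and 0 to 1 called lower. Slc40a1 lost its call without CYR61 replicate 1, 2 or 4 or control replicate 2, 3, 4, 6 or 7, and Slc11a2 without CYR61 replicate 2 or 3, while Fth1 passed without CYR61 replicate 1 and without CYR61 replicates 1 and 4. The cause was not tested. Over all genes, 806 higher and 398 lower became 529 and 938 with library size alone and 477 and 163 at an adjusted p of 0.01. Leaving out 1 library gave 583 to 903 higher and 205 to 469 lower, the lowest being without CYR61 replicate 2. The share of called genes that were higher was 66.9% with TMM and 36.1% with library size alone.

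Values that changed sign were all small and none passed. With library size alone, log2 fold changes were -0.0002967 for Fth1, -0.01865 for Ftl1 and -0.0391 for Blvra. For Ireb2 they were 0.01279 with library weights, 0.0003715 without a filter and 0.01311 without CYR61 replicates 1 and 4, and ran from -0.04363 (without CYR61 replicate 4) to 0.04672 (without CYR61 replicate 1) when 1 library was left out. For Blvra they were -0.01478 with library weights and -0.06205 without CYR61 replicates 1 and 4, and ran from -0.02334 to 0.05121 when 1 library was left out. For Ncoa4 it was 0.006798 without CYR61 replicates 1 and 4. Summed with their copies, Fth1 and Ftl1 stayed short of the threshold.

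Same-numbered libraries did not deviate together (correlations -0.03 to 0.03). Whether equal numbers mark a shared mouse or batch is not stated, and 4 pairs are too few to tell. With the replicate number as a block over 8 libraries, 2 iron genes were higher and 1 lower (Slc11a2 lost its call, adjusted p = 0.123, and Blvrb passed, adjusted p = 0.0496), with 811 higher and 450 lower over all genes. In the same 8 libraries without the block, Slc11a2 did not pass either (adjusted p = 0.0755, edgeR). Slc40a1 failed there (adjusted p = 0.105) and passed with the block (adjusted p = 0.0375). Intervals cover the spread between these libraries, and 4 CYR61 libraries limit the precision.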
